A study of Mus musculus with 13 samples.

Results

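The genes described here encode the constitutive proteasome: the subunits of its core and regulatory particles, its activators and inhibitor, and the chaperones that assemble it. They were taken as every row of the count table whose symbol begins with Psm, a letter from a to g and a digit, leaving out the immunoproteasome genes Psmb8, Psmb9 and Psmb10. This gave 47 of the 25746 genes in the table. By role they were 8 genes of the core particle alpha ring, 8 of its beta ring, 6 ATPases of the regulatory particle base, 11 further base and lid subunits, 5 activators and 8 inhibitor or assembly genes. Psmc3ip matched by name only, since its product is a partner of a meiotic recombinase and not a proteasome subunit. A filter on low counts kept 45 of the 47. Psma8, the alpha subunit of testis, held 0 to 6 counts per library, and Psmb11, the beta subunit of thymic cortical epithelium, held 0 to 30, and neither was tested.

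RNA was sequenced in bulk from keratinocytes of the interfollicular epidermis, the surface layer that lies between hairs, sorted by flow cytometry from the skin of C57/BL6 mice. Every mouse carried floxed Il12rb2 alleles, that is, alleles of an interleukin-12 receptor subunit that Cre can remove. Libraries fell into K14Cre/+ Il12rb2fl/fl after Aldara (Cre-positive Aldara, n = 3), Il12rb2fl/fl after Aldara (Cre-negative Aldara, n = 3), untreated K14Cre/+ Il12rb2fl/fl (Cre-positive untreated, n = 4) and untreated Il12rb2fl/fl (Cre-negative untreated, n = 3). Aldara is a cream with 5% imiquimod, an agonist of Toll-like receptor 7, and was put on the skin for 1 day. K14Cre is driven by the keratin 14 promoter, which is meant to direct recombination to keratin 14 lineages. Where recombination took place was not measured here. Neither a vehicle cream nor Cre on wild-type alleles was analysed here, and ages are not in the sources used here. Since replicates carry a number but no animal in the labels, each p-value rests on a spread between samples that could be technical.

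The proteasome degrades proteins tagged with ubiquitin. Its barrel-shaped core has outer alpha rings that gate entry and inner beta rings, in which Psmb5, Psmb6 and Psmb7 carry the catalytic sites. A regulatory particle caps the core, with a base of ATPases that unfold substrates and a lid that removes ubiquitin. Dedicated chaperones assemble the parts, and activators such as those encoded by Psme1 to Psme4 can bind the core in place of the regulatory particle. Cells are known to adjust transcription of most subunits together, chiefly through the factor encoded by Nfe2l1. Interferon-gamma exchanges the catalytic subunits for those of the immunoproteasome.

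The libraries held 5830034 to 22232478 counts. Levels are given in CPM, counts scaled to a common library size with edgeR's TMM factors, and fold changes are on the log2 scale with their standard error (SE). A predicted gene, Gm10800, took 14.2% of counts in Cre-negative untreated replicate 2, and 5.21% and 10.3% in Cre-positive untreated replicates 1 and 2, and at most 2.22% in any other library. Cre-positive Aldara replicate 1 had the lowest median Spearman correlation with the other libraries, 0.847. The floxed gene itself was read at 0, 1.07 and 1.64 CPM in Cre-positive Aldara and 1.98, 8.14 and 2.68 CPM in Cre-negative Aldara libraries. Untreated, Il12rb2 stood at 22.7, 8.52, 25.6 and 19.0 CPM in Cre-positive and 17.1, 78.8 and 52.7 CPM in Cre-negative libraries. Neither genotype difference of Il12rb2 passed (edgeR adjusted p = 0.982 after Aldara and 1 untreated), and the libraries overlapped untreated, so these reads are a weak check on the Cre labels. Of 7 defining keratinocyte markers all were tested, with Krt14 at 9592 ± 2666 and 8746 ± 3399 CPM in Cre-positive and Cre-negative Aldara libraries, against 26980.3 ± 6002 and 15194 ± 5463 CPM in Cre-positive and Cre-negative untreated libraries (SD).

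Proteasome transcripts were higher after Aldara in both genotypes, and in each of the 6 roles every member that passed the test rose. Averaged over the genotypes, 35 of the 45 tested members rose and 0 fell by edgeR's quasi-likelihood test (adjusted p under 0.05 over all genes), while 13% of all 16051 genes tested were called higher and 11.9% lower. The median log2 fold change of the 45 was 0.73, beside -0.15 for all genes tested, and all 45 fitted values were above 0. In bulk RNA, more cells of a type and more RNA per cell cannot be told apart. For 21 of the 45 every Aldara library lay above every untreated library, which held for 6.29% of all genes, while 5.48% were below throughout. In Cre-positive cells 22 members rose and 0 fell (7.81% of all genes were higher and 7.69% lower), with a median of 0.70 beside -0.09 for all genes. In Cre-negative cells 11 rose and 0 fell (4.15% of all genes were higher and 2.9% lower), with a median of 0.68 beside -0.13. Groups did not overlap for 34 members in Cre-positive and 30 in Cre-negative cells, always with Aldara higher. Over all genes 14.2% were higher and 14.8% lower without overlap in Cre-positive cells, and 13.1% and 14.7% in Cre-negative cells. Called in both genotypes were Psma5, Psma7, Psmb3, Psmc2, Psmc4, Psmd7, Psmd13, Psme3, Psmg1 and Psmg3, and Psmd12 was called in Cre-negative cells alone.

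**Figure D1:**
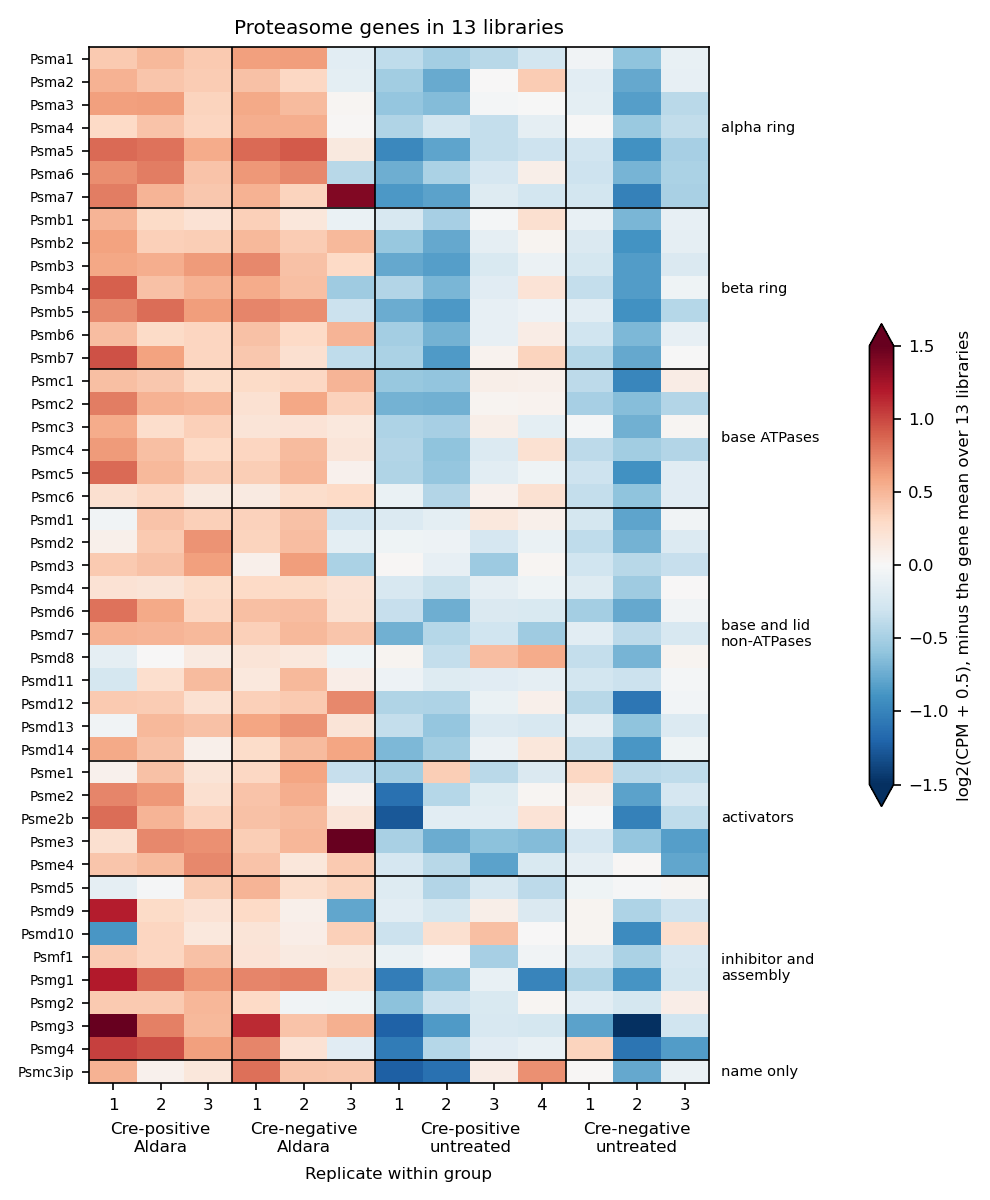
Each row is a tested gene and each column a library; colour gives log2(CPM + 0.5) minus the gene's mean over the 13 libraries, red above and blue below. The 6 Aldara libraries at the left are mostly red, with Cre-negative Aldara replicate 3 the palest, and the deepest blue among untreated libraries lies in Cre-negative replicate 2 and Cre-positive replicates 1 and 2.

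The libraries high in Gm10800 were also the lowest in proteasome transcripts. The 45 tested members summed to 8354 to 10128 CPM in Aldara libraries, above all untreated libraries with or without those 3. They summed to 4452 CPM in Cre-negative untreated replicate 2 and to 5296 and 5207 CPM in Cre-positive untreated replicates 1 and 2, and to 6177 to 7156 CPM in the 4 other untreated libraries. Without the 3 libraries, 21 of 45 members rose in the averaged contrast, 3 in Cre-positive and 0 in Cre-negative cells. With every library these counts were 35, 22 and 11. Calls over all genes, both directions together, were 2622, 1466 and 270, against 3994 (24.9%), 2489 (15.5%) and 1132 (7.05%) with every library. Within each genotype the members thus kept a smaller part of their calls than all genes did. The number of genes tested without the 3 libraries, and their calls by direction, are not given here. Shares of the genes tested can therefore not be set side by side for that fit. The members' medians were then 0.54, 0.52 and 0.58 beside all-gene medians of 0.08, 0.09 and 0.04. The part of the Gm10800 reads in the difference was not tested.

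Counts within a genotype also rested on single libraries. The Cre-positive count of 22 was 10, 12 or 14 without Cre-positive Aldara replicate 1, 2 or 3, and 11 or 13 without Cre-positive untreated replicate 1 or 2. The Cre-negative count of 11 was 4, 0 or 1 without Cre-negative untreated replicate 1, 2 or 3, 2 without Cre-negative Aldara replicate 1 and again 2 without replicate 2, and 3 or 5 without Cre-positive Aldara replicate 2 or 3. The averaged count stayed between 26 and 37 with any 1 library left out. Calls over all genes with 1 library left out are not given here, so whether they moved alike cannot be read. Of the 35 members called in the averaged contrast, 26 kept the call without each of the 13 libraries in turn, and 21 kept it in all 19 alternative settings. The 9 that lost it without some library were Psma2, Psmb4, Psmb7, Psmc3, Psmc6, Psmd3, Psmd4, Psmd5 and Psmg4. The fitted value was above 0 in every setting for 43 of the 45, the exceptions being Psmd8 and Psmd10. The account of single genes below therefore gives the averaged contrast first.

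**Figure D2:**
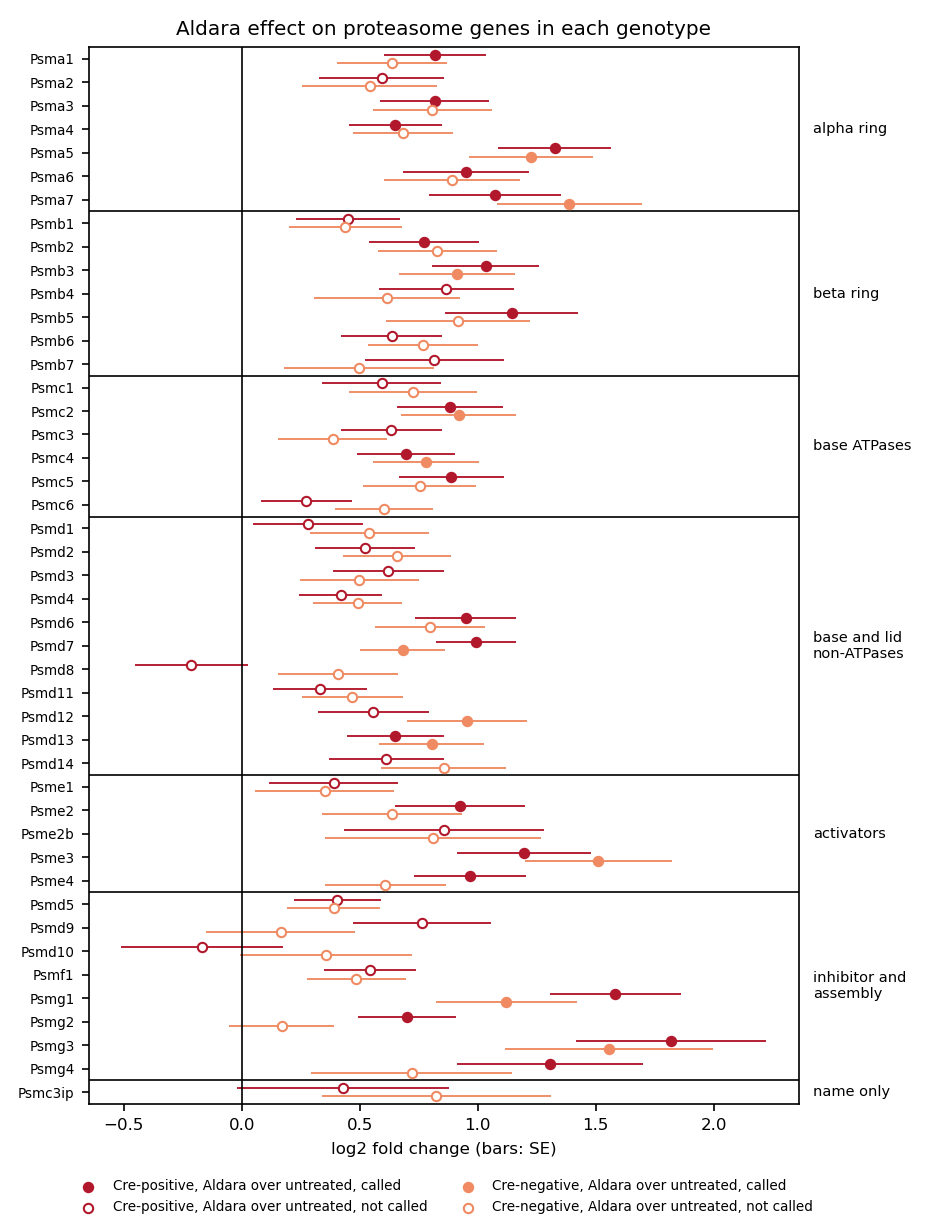
Points give the log2 fold change of Aldara over untreated for each tested gene, Cre-positive above Cre-negative in each row, with bars of 1 SE; filled points passed edgeR's test over all genes. Nearly all points lie right of 0, between 0.16 and 1.82, and Psmd8 and Psmd10 in Cre-positive cells lie left of it, at -0.21 and -0.17.

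Genes of S phase and markers of cell types also differed with Aldara in the averaged contrast. Of 14 S phase genes 12 rose and 0 fell, with a median of 1.22, and their sum was 1628 to 2109 CPM in Aldara against 548 to 1365 CPM in untreated libraries. Rrm2, a subunit of ribonucleotide reductase, was at 2.12 (adjusted p = 8.46e-05) and Mcm7, of the replicative helicase, at 1.16 (adjusted p = 0.000153). Of 7 defining keratinocyte markers 0 rose and 5 fell, summing to 10546 to 19593 CPM in Aldara against 20963 to 54114 CPM in untreated libraries, with Krt10, a keratin of differentiating cells, at -4.15 (adjusted p = 2.1e-05) and the basal keratin Krt5 at -1.37 (adjusted p = 0.000431). Of 10 sebaceous gland markers 8 rose and 0 fell, summing to 4273 to 7736 CPM against 686 to 4348 CPM, with Far2 at 2.94 (adjusted p = 2.06e-05) and Plin2 at 2.75 (adjusted p = 0.000121). Of 6 fibroblast markers 0 rose and 5 fell, summing to 10.6 to 308 CPM against 776 to 1865 CPM, with Lum at -4.30 (adjusted p = 0.000114) and Col1a2 at -3.05 (adjusted p = 0.000154).

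Markers of the other cell types summed to at most 595 CPM in any library. Of 3 tested neutrophil markers 2 rose, summing to 18.4 to 183 CPM in Aldara against 0.544 to 20.0 CPM in untreated libraries, and these, S100a8 (4.46, adjusted p = 0.000751) and S100a9 (3.26, adjusted p = 0.0107), are also made by inflamed keratinocytes, while the defining Ly6g and Csf3r were too low to test. Of 6 Langerhans cell and macrophage markers 1 fell, Cd207 at -6.08 (adjusted p = 0.0254), which was at 0 in all Cre-positive Aldara libraries, and their sums were 57.3 to 479 CPM against 35.3 to 283 CPM. Of 3 tested T cell markers 1 fell, Trbc2 at -1.72 (adjusted p = 0.00296), at sums of 4.53 to 9.92 CPM against 8.91 to 28.7 CPM. Of 5 endothelial and mural markers 1 fell, Rgs5 at -2.33 (adjusted p = 0.000669), at 13.6 to 50.7 CPM against 32.9 to 185 CPM. Hair follicle markers summed to 123 to 595 CPM against 92.6 to 197 CPM, and of 7 tested 1 rose, Sox9 (1.18, adjusted p = 0.0245), and 2 fell, Cd34 (-1.74, adjusted p = 0.0086) and Msx2 (-2.19, adjusted p = 0.0461). Melanocyte and Merkel cell markers summed to 11.6 to 130 CPM against 21.7 to 206 CPM, and 0 of 5 were called by edgeR. The part of cycling cells and of these cell types in the proteasome difference was not tested.

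Promoters are shown because most members moved in 1 direction. RefSeq promoters (GRCm38.p6) were found by symbol for 39 of the 47 members, and the 250 bases before each start were searched on both strands. The letters CCGGAAG, a core bound by ETS family factors, were in 13 of 39 members (33.3%), against 7.83% of all 27025 genes with a promoter and 14% of the 11559 of them that were tested here. The core of the antioxidant response element, TGACNNNGC or TGAGNNNGC, to which the factors encoded by Nfe2l1 and Nfe2l2 bind with a small MAF partner, was in 13 of 39 (33.3%), against 25.7% of all genes and 29.4% of those tested. CCAAT, the core bound by NF-Y, was in 14 of 39 (35.9%), against 37.5% and 40.0%. No test was made of these shares. The windows below hold the ETS or antioxidant response cores of the members that are described library by library and were called, where at most 30 bases of a window lie inside the gene as GENCODE places it. They are written on the gene's own strand with up to 20 bases on either side, capitals mark the match, and CTTCCGG is the same core read on the other strand, as GCTAAGTCA in Psmc6 is for the antioxidant response core. Windows deeper in the gene, such as those before a further RefSeq start of Psmc2 for both cores, are not printed.
Psmc2, chr5:21785171-21785217, plus strand: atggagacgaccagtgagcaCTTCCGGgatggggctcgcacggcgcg
Psmc6, chr14:45329704-45329750, plus strand: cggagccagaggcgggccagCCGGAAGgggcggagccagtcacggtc
Psmd6, chr14:14120964-14121010, minus strand: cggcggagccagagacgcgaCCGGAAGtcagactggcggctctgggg
Psme3, chr11:101316086-101316132, plus strand: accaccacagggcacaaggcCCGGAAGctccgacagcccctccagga
Psme4, chr11:30771702-30771748, plus strand: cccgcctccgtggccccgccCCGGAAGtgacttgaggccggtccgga
Psmg1, chr16:95991003-95991049, minus strand: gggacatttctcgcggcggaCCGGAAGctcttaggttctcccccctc
Psmb3, chr11:97703404-97703433, plus strand: ttcggcaagagcgttgacccTGAGAAAGCc
Psmb5, chr14:54618014-54618062, minus strand: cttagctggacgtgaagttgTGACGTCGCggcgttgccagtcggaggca
Psmb6, chr11:70525328-70525356, plus strand: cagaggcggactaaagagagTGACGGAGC
Psmc6, chr14:45329577-45329625, plus strand: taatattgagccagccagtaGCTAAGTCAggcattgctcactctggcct
Psmc6, chr14:45329574-45329611, plus strand: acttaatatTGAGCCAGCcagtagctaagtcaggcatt
In these windows the ETS core lay 84, 100, 45, 107, 53 and 69 bases before the RefSeq start in Psmc2, Psmc6, Psmd6, Psme3, Psme4 and Psmg1. The antioxidant response core lay 10, 47 and 9 bases before it in Psmb3, Psmb5 and Psmb6, and 227 and 241 bases before it in Psmc6, where the 2 matches stand close together. GENCODE starts some of these genes further upstream than RefSeq, so that 30 of the 30 bases shown for Psmb3, 23 for Psme4, 21 for Psmd6 and 9 for Psmb5 lie inside the gene by its coordinates. Among members that were not called, Psmc3ip held 3 matches to CCGGAAG and 1 antioxidant response core, Psmd9 and Psmd1 an antioxidant response core and Psmd11 an ETS core. Among the 30 members with a promoter that were called, 11 held CCGGAAG and 10 held an antioxidant response core. A match describes these letters only, and whether a factor binds there was not measured.

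The alpha ring, whose subunits form the gated ends of the core, rose as a whole: 7 of 7 tested members were called in the averaged contrast, with log2 fold changes of 0.57 to 1.28 and a median of 0.81. Their sum was 2298 ± 167 CPM in Cre-positive and 2263 ± 182 CPM in Cre-negative Aldara libraries (SD, n = 3 each), against 1243 ± 241 CPM in Cre-positive (SD, n = 4) and 1208 ± 248 CPM in Cre-negative untreated libraries (SD, n = 3). Psma5 lies on chromosome 3 (108256926 to 108279974, plus strand). Psma5 was at 297, 289.8 and 243 CPM in Cre-positive and 298, 312 and 184 CPM in Cre-negative Aldara libraries, against 84.1, 94.9, 129 and 133 CPM in Cre-positive and 135, 87.4 and 116 CPM in Cre-negative untreated libraries. Each Aldara library lay above each untreated one. The fitted log2 fold change over both genotypes was 1.28 (SE 0.18, edgeR adjusted p = 0.00016), with 1.33 (SE 0.24) in Cre-positive and 1.22 (SE 0.26) in Cre-negative cells.

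Aldara libraries held Psma7 at 557, 467 and 434 CPM (Cre-positive) and 468, 411 and 858 CPM (Cre-negative), and untreated libraries at 179, 188, 286 and 269 CPM (Cre-positive) and 269.7, 161 and 233 CPM (Cre-negative). Psma7, on chromosome 2 (180036374 to 180042433, minus strand), was higher in all Aldara than in all untreated libraries, and Cre-negative Aldara replicate 3 stood far above the rest. Psma7 had an averaged log2 fold change of 1.23 (SE 0.21, edgeR adjusted p = 0.00056). Without that replicate the Cre-negative value of 1.39 was 0.99 (adjusted p = 0.0463). For Psma3 the CPM values were 358, 362 and 295 in Cre-positive Aldara and 348, 324 and 239 in Cre-negative Aldara libraries, against 156, 149, 230.1 and 233 in Cre-positive untreated and 211, 132 and 177 in Cre-negative untreated libraries. These groups did not overlap. Psma3 had an averaged log2 fold change of 0.81 (SE 0.17, edgeR adjusted p = 0.00281). The other members, Psma1, Psma2, Psma4 and Psma6, rose by 0.57 to 0.92, and the call of Psma2 was the weakest, with an adjusted p of 0.0449 and a call held in 5 of the 19 alternative settings. Exons of Psma4 and Psma5 overlap another gene on the opposite strand, by 114 and 60 bases, and the library method does not mark strand.

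In the beta ring 6 of 7 tested members rose in the averaged contrast, with a median log2 fold change of 0.74. The ring summed to 1929 ± 172 CPM in Cre-positive and 1731 ± 223 CPM in Cre-negative Aldara libraries (SD, n = 3 each), against 1128 ± 292 CPM (SD, n = 4) and 1054 ± 237 CPM (SD, n = 3) in Cre-positive and Cre-negative untreated libraries. Psmb5 carries the chymotrypsin-like site, the target of proteasome inhibitor drugs (chromosome 14, 54614119 to 54618022, minus strand). It shares 109 of its 899 exonic bases with Mir686 on its own strand. Psmb5 was at 203, 219.9 and 190.1 CPM in Cre-positive and 205, 199.7 and 97.8 CPM in Cre-negative Aldara libraries, against 73.1, 67.1, 113 and 116 CPM in Cre-positive and 109.8, 65.2 and 90.9 CPM in Cre-negative untreated libraries. Cre-negative Aldara replicate 3 fell within the untreated range, and the other 5 Aldara libraries lay above it. The averaged log2 fold change of Psmb5 was 1.03 (SE 0.21, edgeR adjusted p = 0.0021), with 1.14 (SE 0.28) in Cre-positive and 0.92 (SE 0.31) in Cre-negative cells. Without that replicate the averaged value was 1.16 and the Cre-negative value 1.19.

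Psmb6 carries the caspase-like site (chromosome 11, 70525367 to 70527858, plus strand). Aldara libraries held Psmb6 at 338, 301 and 307 CPM (Cre-positive) and 334, 303 and 350.2 CPM (Cre-negative), and untreated libraries at 172, 150.1, 226 and 264 CPM (Cre-positive) and 200.3, 154 and 226 CPM (Cre-negative). All Aldara libraries were above all untreated ones, and the averaged log2 fold change was 0.70 (SE 0.16, edgeR adjusted p = 0.00457). Psmb7 carries the trypsin-like site. For Psmb7 the CPM values were 234, 184 and 151 in Cre-positive Aldara and 161, 143 and 92.3 in Cre-negative Aldara libraries, against 86.8, 66.5, 125 and 152 in Cre-positive untreated and 89.9, 70.5 and 119.9 in Cre-negative untreated libraries. Aldara and untreated libraries overlapped for Psmb7. Averaged, its log2 fold change was 0.66 (SE 0.22, edgeR adjusted p = 0.0373). That call was lost without Cre-negative untreated replicate 1 or 2 (adjusted p = 0.0749 and 0.101), Cre-positive untreated replicate 1 or 2 (0.0703 and 0.0548), Cre-negative Aldara replicate 1 or 2 (0.106 and 0.0784) or Cre-positive Aldara replicate 1 or 2 (0.0928 and 0.0643), and Psmb7 shares 405 exonic bases with Nek6 on the opposite strand.

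Psmb3 and Psmb2 are structural members of the ring without a catalytic site. Psmb3 was at 265, 258 and 275 CPM in Cre-positive and 290.1, 239 and 217 CPM in Cre-negative Aldara libraries, against 104, 99.6, 151 and 166 CPM in Cre-positive and 146, 98.4 and 152 CPM in Cre-negative untreated libraries. Aldara libraries held Psmb2 at 432, 363 and 368 CPM (Cre-positive) and 397, 369.8 and 398 CPM (Cre-negative), and untreated libraries at 192, 166, 258 and 292 CPM (Cre-positive) and 244, 153 and 259 CPM (Cre-negative). Neither gene's Aldara libraries overlapped its untreated ones. The averaged log2 fold changes were 0.97 (SE 0.17, edgeR adjusted p = 0.000675) for Psmb3 and 0.80 (SE 0.17, edgeR adjusted p = 0.00317) for Psmb2. Psmb4 rose by 0.74, and Psmb1, at 0.44, did not pass (adjusted p = 0.0581).

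**Figure D3:**
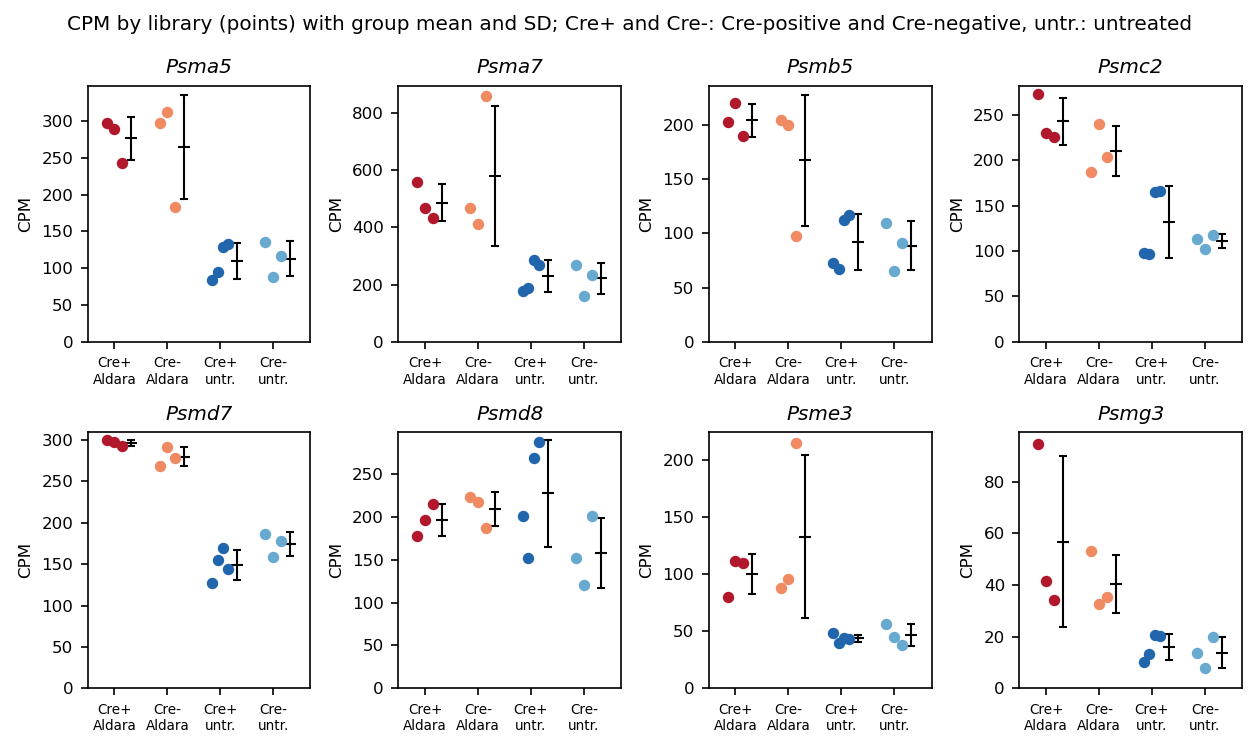
Points are the CPM of each library in the 4 groups, Aldara left of untreated, with the group mean and SD beside them, for 8 genes on axes that start at 0. Cre-negative Aldara replicate 3 stands apart in Psma7 (858 CPM), Psme3 (216 CPM) and Psmb5 (97.8 CPM), Cre-positive Aldara replicate 1 in Psmg3 (94.6 CPM), and the groups of Psmd8 overlap.

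All 6 ATPases of the base, the ring that unfolds substrates and threads them into the core, rose in the averaged contrast, by 0.44 to 0.90. They summed to 1569 ± 153 CPM in Cre-positive and 1418 ± 76.6 CPM in Cre-negative Aldara libraries (SD, n = 3 each), against 992 ± 209 CPM (SD, n = 4) and 884 ± 171 CPM (SD, n = 3) in Cre-positive and Cre-negative untreated libraries. For Psmc2 the CPM values were 273, 229.6 and 226 in Cre-positive Aldara and 187, 239.9 and 203 in Cre-negative Aldara libraries, against 97.6, 96.6, 165 and 166 in Cre-positive untreated and 113, 102 and 118 in Cre-negative untreated libraries. Psmc2 (chromosome 5, 21785283 to 21803787, plus strand) did not overlap between Aldara and untreated libraries, with an averaged log2 fold change of 0.90 (SE 0.17, edgeR adjusted p = 0.0011) and 0.88 (SE 0.23) in Cre-positive and 0.92 (SE 0.24) in Cre-negative cells. Psmc5 was at 386, 300.3 and 279 CPM in Cre-positive and 276, 303 and 224 CPM in Cre-negative Aldara libraries, against 157, 143, 192 and 204 CPM in Cre-positive and 172, 114 and 189.6 CPM in Cre-negative untreated libraries. Here too the groups stood apart, with an averaged log2 fold change of 0.82 (SE 0.16, edgeR adjusted p = 0.00189). Aldara libraries held Psmc4 at 293, 258 and 232 CPM (Cre-positive) and 235, 260.5 and 214 CPM (Cre-negative), and untreated libraries at 138, 123, 163 and 220.0 CPM (Cre-positive) and 143, 131 and 139 CPM (Cre-negative). The lowest Aldara library of Psmc4 was just below the highest untreated one, and the averaged log2 fold change was 0.74 (SE 0.15, edgeR adjusted p = 0.00244). Psmc3 shares 215 exonic bases with Slc39a13 on the opposite strand.

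Psmc6 had the smallest averaged change of the ATPases. For Psmc6 the CPM values were 231, 243 and 216 in Cre-positive Aldara and 215, 235 and 241 in Cre-negative Aldara libraries, against 183, 145, 205 and 229 in Cre-positive untreated and 152, 128 and 174 in Cre-negative untreated libraries. Its groups overlapped, through Cre-positive untreated replicate 4. Its averaged log2 fold change was 0.44 (SE 0.14, edgeR adjusted p = 0.0335), and the call was lost without any 1 of 10 libraries, with adjusted p between 0.0510 and 0.0924. The 3 libraries without which it was kept were Cre-negative untreated replicate 3 and Cre-positive untreated replicates 3 and 4.

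Of the 11 non-ATPase subunits of base and lid 8 rose in the averaged contrast, with a median log2 fold change of 0.59. The sum was 2749 ± 195 CPM in Cre-positive and 2676 ± 307 CPM in Cre-negative Aldara libraries (SD, n = 3 each), against 1958 ± 173 CPM (SD, n = 4) and 1733 ± 307 CPM (SD, n = 3) in Cre-positive and Cre-negative untreated libraries. Psmd7 is the lid partner of the deubiquitinating enzyme Psmd14 (chromosome 8, 107580381 to 107588464, minus strand). Psmd7 was at 299.8, 297 and 292 CPM in Cre-positive and 269, 292 and 278 CPM in Cre-negative Aldara libraries, against 127, 155, 169.5 and 145 CPM in Cre-positive and 187, 159 and 177 CPM in Cre-negative untreated libraries. The 3 Cre-positive Aldara values of Psmd7 differed little and all lay above the Cre-negative Aldara values. The margin was narrow, since the lowest Cre-positive value was 292.1 CPM and the highest Cre-negative value 291.8 CPM. All Aldara values lay above all untreated ones. Averaged over the genotypes the log2 fold change was 0.84 (SE 0.12, edgeR adjusted p = 0.000235), with 0.99 (SE 0.17) in Cre-positive and 0.68 (SE 0.18) in Cre-negative cells.

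Aldara libraries held Psmd6 at 231, 196 and 164 CPM (Cre-positive) and 181, 181 and 154 CPM (Cre-negative), and untreated libraries at 103, 79.2, 113 and 112 CPM (Cre-positive) and 92.3, 77.3 and 127 CPM (Cre-negative). This lid subunit had no overlap between the groups and an averaged log2 fold change of 0.87 (SE 0.16, edgeR adjusted p = 0.000955). For Psmd13 the CPM values were 124, 182 and 176 in Cre-positive Aldara and 195, 207 and 149 in Cre-negative Aldara libraries, against 101, 86.5, 112 and 109.7 in Cre-positive untreated and 118, 84.8 and 112 in Cre-negative untreated libraries. Psmd13, another lid subunit, was also apart, with an averaged log2 fold change of 0.73 (SE 0.15, edgeR adjusted p = 0.00265), though it shares 342 exonic bases with Sirt3 on the opposite strand. Psmd14 rose by 0.73, the lid subunit Psmd12 by 0.76, the scaffold Psmd2 by 0.59, Psmd3 by 0.56 and the ubiquitin receptor Psmd4 by 0.46. Psmd1 and Psmd11, at 0.41 and 0.40, did not pass (adjusted p = 0.096 and 0.0583).

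Psmd8, a lid subunit, had the smallest averaged change in its group. Psmd8 was at 178, 197 and 215 CPM in Cre-positive and 224, 217 and 187 CPM in Cre-negative Aldara libraries, against 201, 153, 269 and 288 CPM in Cre-positive and 152, 120.4 and 201 CPM in Cre-negative untreated libraries. Aldara and untreated libraries overlapped, and the highest values were Cre-positive untreated replicates 3 and 4. The log2 fold change of Psmd8 was 0.10 (SE 0.17, edgeR adjusted p = 0.74) on average, and it was -0.14 without the 3 libraries high in Gm10800. By genotype it was -0.21 (SE 0.24) in Cre-positive and 0.41 (SE 0.25) in Cre-negative cells.

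Of the 5 activator genes 3 rose in the averaged contrast, and they summed to 758 ± 63.0 CPM in Cre-positive and 735 ± 58.5 CPM in Cre-negative Aldara libraries (SD, n = 3 each), against 445 ± 81.5 CPM (SD, n = 4) and 466 ± 119 CPM (SD, n = 3) in Cre-positive and Cre-negative untreated libraries. Psme3 encodes the nuclear activator, which works without ubiquitin (chromosome 11, 101316213 to 101323537, plus strand). Aldara libraries held Psme3 at 80.1, 112 and 109.7 CPM (Cre-positive) and 87.7, 96.0 and 216 CPM (Cre-negative), and untreated libraries at 48.3, 40.2, 44.0 and 43.0 CPM (Cre-positive) and 56.7, 45.3 and 38.2 CPM (Cre-negative). All Aldara libraries lay above all untreated ones, and Cre-negative Aldara replicate 3, high in Psma7 as well, was the highest. The averaged log2 fold change was 1.35 (SE 0.21, edgeR adjusted p = 0.000337), and without that replicate it was 1.08 (adjusted p = 0.00025). In Cre-negative cells alone the value of 1.51 was 0.97 without it (adjusted p = 0.0285).

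For Psme4 the CPM values were 57.9, 60.3 and 71.5 in Cre-positive Aldara and 58.2, 48.5 and 56.9 in Cre-negative Aldara libraries, against 36.0, 32.1, 24.5 and 36.8 in Cre-positive untreated and 39.2, 43.5 and 24.8 in Cre-negative untreated libraries. Psme4, a large nuclear activator, had separate groups and an averaged log2 fold change of 0.79 (SE 0.17, edgeR adjusted p = 0.00391). Psme1 and Psme2 together form the cytosolic activator that interferon-gamma induces. Psme2 was at 394, 370.5 and 279 CPM in Cre-positive and 319, 345 and 246 CPM in Cre-negative Aldara libraries, against 108, 176, 209 and 241 CPM in Cre-positive and 252, 135 and 199 CPM in Cre-negative untreated libraries. Cre-negative untreated replicate 1 reached into the Aldara range of Psme2. Its averaged log2 fold change was 0.78 (SE 0.20, edgeR adjusted p = 0.0104), which was 0.52 without the 3 libraries high in Gm10800 (adjusted p = 0.0651). Its partner Psme1, at 0.37, did not pass (adjusted p = 0.208). Psme2b, a near-identical copy of Psme2 at 12.4 to 19.7 CPM in Aldara and 4.20 to 12.6 CPM in untreated libraries, did not pass either (0.83, adjusted p = 0.0641), and reads of the 2 copies may have been split between them.

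Among the members, 3 of the 4 chaperones that build the alpha ring rose (Psmg1, Psmg3 and Psmg4). Of the 3 members that help build the base 1 rose (Psmd5). The 8 inhibitor and assembly genes summed to 472 ± 52.2 CPM in Cre-positive and 406 ± 53.2 CPM in Cre-negative Aldara libraries (SD, n = 3 each), against 276 ± 23.4 CPM (SD, n = 4) and 284 ± 37.3 CPM (SD, n = 3) in Cre-positive and Cre-negative untreated libraries, and 5 of them rose in the averaged contrast. Psmg3 pairs with Psmg4 (Psmg3 on chromosome 5, 139823592 to 139826885, minus strand). Aldara libraries held Psmg3 at 94.6, 41.3 and 34.3 CPM (Cre-positive) and 53.1, 32.8 and 35.3 CPM (Cre-negative), and untreated libraries at 10.2, 13.3, 20.5 and 20.2 CPM (Cre-positive) and 13.7, 7.68 and 19.7 CPM (Cre-negative). The groups did not overlap, and Cre-positive Aldara replicate 1 was the highest. The averaged log2 fold change of Psmg3, the largest among the members, was 1.69 (SE 0.30, edgeR adjusted p = 0.000855). In Cre-positive cells the value of 1.82 was 1.23 without that replicate (adjusted p = 0.0551). Psmg3 shares 280 exonic bases with Gm26938 on its own strand. Psmg4 rose by 1.01 (adjusted p = 0.0184).

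Psmg1 pairs with Psmg2 (Psmg1 on chromosome 16, 95979933 to 95990960, minus strand). For Psmg1 the CPM values were 79.1, 62.5 and 54.1 in Cre-positive Aldara and 57.5, 58.3 and 40.7 in Cre-negative Aldara libraries, against 16.5, 21.8, 31.7 and 17.1 in Cre-positive untreated and 25.0, 18.3 and 28.4 in Cre-negative untreated libraries. Its Aldara libraries were all above its untreated ones. Psmg1 had an averaged log2 fold change of 1.35 (SE 0.20, edgeR adjusted p = 0.000273), with 1.58 (SE 0.28) in Cre-positive and 1.12 (SE 0.30) in Cre-negative cells. Psmg2 was at 70.5, 70.2 and 75.9 CPM in Cre-positive and 65.7, 51.4 and 51.3 CPM in Cre-negative Aldara libraries, against 34.9, 42.6, 45.6 and 54.6 CPM in Cre-positive and 47.8, 44.6 and 57.4 CPM in Cre-negative untreated libraries. Psmg2 was separate from the untreated libraries in Cre-positive cells alone. It stood at 0.43 (SE 0.15), just outside the threshold (adjusted p = 0.050), and DESeq2 put it inside (adjusted p = 0.0445).

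Psmf1 encodes a protein first described as an inhibitor of the core. Aldara libraries held Psmf1 at 61.0, 58.5 and 63.3 CPM (Cre-positive) and 53.7, 51.3 and 51.4 CPM (Cre-negative), and untreated libraries at 43.4, 45.9, 32.8 and 45.0 CPM (Cre-positive) and 39.3, 33.4 and 39.0 CPM (Cre-negative). The groups were apart, at a small distance. Its averaged log2 fold change was 0.51 (SE 0.14, edgeR adjusted p = 0.0157), and the adjusted p was 0.0699 without the 3 libraries high in Gm10800. Of the base chaperones among the members Psmd5 rose by 0.40 (adjusted p = 0.0424), and Psmd10 at 0.10 and Psmd9 at 0.47 did not pass (adjusted p = 0.826 and 0.135). The call of Psmd5 was held in 4 of the 19 alternative settings. Psmd9 shares 1849 exonic bases with Gm26745 on the opposite strand, so its counts are uncertain.

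Psmc3ip, the match by name only, did not pass. For Psmc3ip the CPM values were 22.1, 15.9 and 17.2 in Cre-positive Aldara and 27.4, 20.5 and 20.3 in Cre-negative Aldara libraries, against 6.26, 6.73, 16.5 and 24.9 in Cre-positive untreated and 15.5, 8.74 and 14.2 in Cre-negative untreated libraries. Its groups overlapped, and the averaged log2 fold change was 0.63 (SE 0.33, edgeR adjusted p = 0.192). It shares 385 exonic bases with Mlx on the opposite strand.

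**Figure D4:**
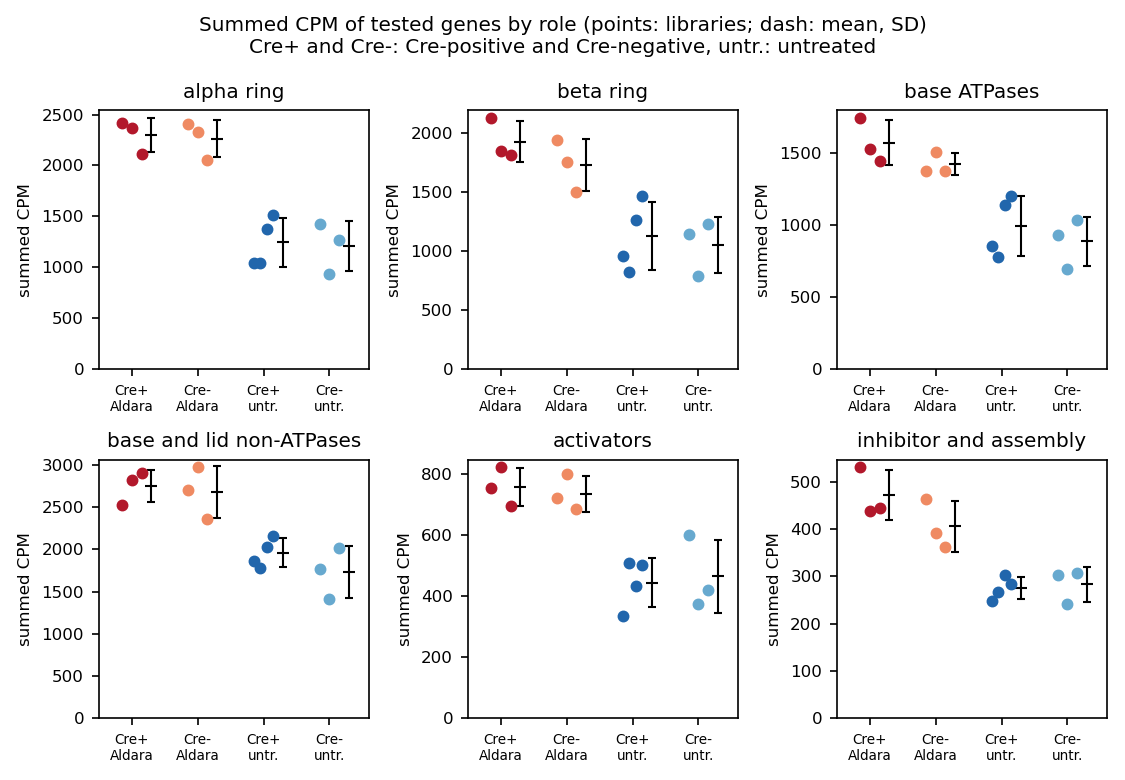
Points are the summed CPM of the tested genes of each role in each library, with the group mean and SD beside them, on axes that start at 0. In all 6 roles every Aldara library lies above every untreated one, for the alpha ring at 2058 to 2422 CPM against 936 to 1516 CPM.

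The share of core against regulatory transcripts was higher in most Aldara libraries. The ratio of summed core CPM (14 genes) to summed regulatory particle CPM (17 genes) was 1.07, 0.970 and 0.903 in Cre-positive Aldara and 1.07, 0.912 and 0.953 in Cre-negative Aldara libraries, against 0.735, 0.732, 0.830 and 0.888 in Cre-positive and 0.953, 0.817 and 0.819 in Cre-negative untreated libraries. Cre-negative untreated replicate 1 reached into the Aldara range, and the other 6 untreated libraries lay below it. The 3 libraries high in Gm10800 had the lowest ratios, at 0.732, 0.735 and 0.817, and the remaining untreated libraries were at 0.819 to 0.953. This ratio was not tested.

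Over the 13 libraries the members' deviations from group means had a median pairwise correlation of 0.466 over 990 gene pairs, 81% of them above 0, beside 0.012 and 51.2% for all pairs of tested genes. Much of this came with the 3 libraries high in Gm10800, in which the members' median deviation was -0.35 (Cre-negative untreated replicate 2), -0.21 and -0.21 (Cre-positive untreated replicates 1 and 2), against 0.15 to 0.30 in the other untreated libraries. Without them the members' median correlation was 0.141, with 61% of pairs above 0, beside 0.007 and 50.6% for all pairs. These are descriptions across genes that share libraries and depth. Over all 13 libraries Psme4 (-0.34), Psme3 (-0.26) and Psmd5 (-0.06) had the lowest median correlation with the other members. In Cre-negative Aldara replicate 3 the members went apart: 30 of 45 were above their mean over all libraries, against 39 to 45 in the other Aldara libraries, while Psma7 and Psme3 were at their highest there. Among untreated libraries 1 to 21 members were above their mean, the fewest in Cre-negative replicate 2.

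Genotype was not accompanied by a change that passed the test in any member. After Aldara 0 of 45 were called between Cre-positive and Cre-negative cells, and untreated 0 of 45, as was 0% of all genes in both contrasts by edgeR. DESeq2 and limma voom also called 0 members. Untreated, Psmd5 alone had no overlap, with Cre-positive lower (2.77% of all genes were higher and 3.26% lower in this way). After Aldara Psmc3, Psmd7, Psmf1 and Psmg2 were higher in Cre-positive cells without overlap (4.37% of all genes were higher and 4.72% lower). For Psmd7 the groups nearly met. At an unadjusted p under 0.05 there was 1 member in each contrast, beside 690 of all genes after Aldara and 599 untreated. The median difference of the members was 0.14 after Aldara and 0.09 untreated, beside -0.02 and -0.05 for all genes. Psmd9 had the smallest p after Aldara, with 101, 54.5 and 52.0 CPM in Cre-positive and 54.8, 47.0 and 25.8 CPM in Cre-negative libraries and a log2 difference of 0.70 (SE 0.32, edgeR adjusted p = 0.982). Cre-positive replicate 1 set its highest value, and the difference was 0.33 without it and 0.44 without Cre-negative Aldara replicate 3. Psmb7 came next, at 0.53 (SE 0.32, edgeR adjusted p = 0.982). Untreated, Psmd8 had the smallest p, with a log2 difference of 0.53 (SE 0.24, edgeR adjusted p = 1), followed by Psmc6 at 0.33 (SE 0.19, edgeR adjusted p = 1). These values did not pass, which does not show that the genotypes were alike, since the SE over the 45 differences was at least 0.18 after Aldara and 0.17 untreated.

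No member passed a test of whether its Aldara effect differed between the genotypes. For the difference between them (the interaction) edgeR called 0 of 45 members and 0% of all genes, 0 members had an unadjusted p under 0.05 against 539 of all genes, and DESeq2 and limma voom called 0 members. Psmd8 had the smallest p, at -0.62 (SE 0.35, edgeR adjusted p = 1), and Psmg2 the next, at 0.53 (SE 0.31, edgeR adjusted p = 1). The median interaction of the members was 0.04, beside 0.01 for all genes. Of the 45 members, 10 were called higher in both genotypes and 23 in either, against 3.47% and 8.49% of all genes, and 43 had a fitted value above 0 in both, against 32.8% of all genes. Between the genotypes the fitted values correlated across members (Pearson 0.691, Spearman 0.648, 45 genes that share libraries, given as a description). The effect was larger in Cre-positive cells for 26 of 45.

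Levels per length were compared in CPM per kilobase of exonic length, as medians over libraries. Psmb2 was the highest member in untreated cells at 203 (range 127 to 243), followed by Psmc5 at 123, Psme2 at 113, Psmb6 at 107 and Psmb5 at 101, and the ranges of these neighbours overlapped. By role the medians were 139 in Aldara against 75.8 in untreated libraries for the alpha ring, 117 against 65.2 for the beta ring and 105 against 67.1 for the ATPases. They were 65.0 against 37.4 for the non-ATPases, 34.9 against 14.9 for the activators and 18.1 against 13.1 for inhibitor and assembly genes. Psme4, the lowest tested member, stood at 6.92 in Aldara and 4.29 in untreated libraries. Within the alpha ring the highest untreated gene was 2.17 times the lowest, and within the beta ring 7.71 times. With the length of basic transcripts in place of all exons the untreated medians were 121, 129, 94.3, 79.7, 16.5 and 19.0 in the same order of roles. The spread within the rings was then 3.33 and 3.67 times. The order among the first 3 roles and among the last 2 thus depends on the length used. So does the order of genes: by basic length Psmb2 was still the highest at 284, but Psme2 stood at 226, Psma7 at 225 and Psmc5 at 131.

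**Figure D5:**
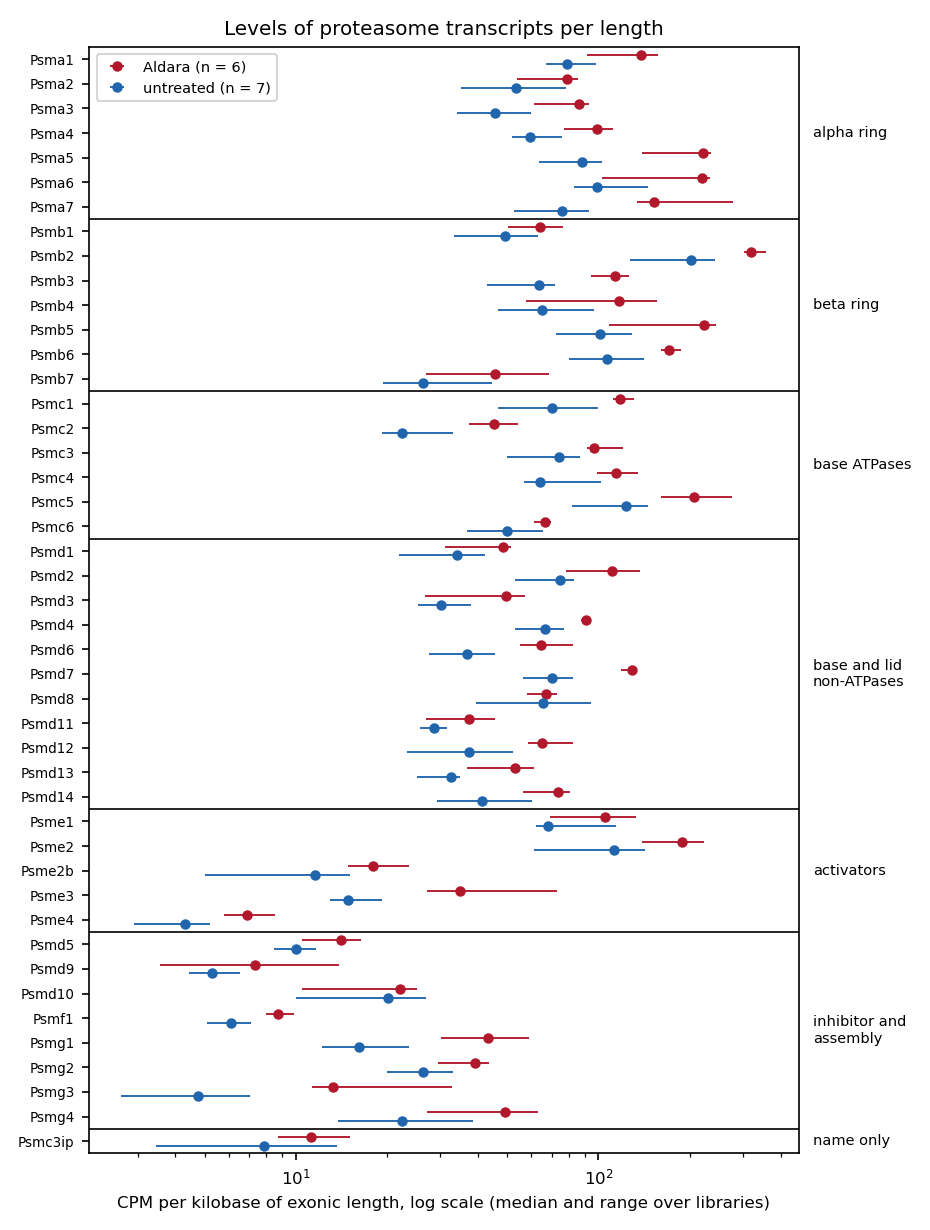
Points give the median and lines the range over libraries of CPM per kilobase of exonic length, on a log axis, for Aldara (n = 6, above) and untreated (n = 7, below) libraries. In untreated libraries the medians of all core and regulatory particle genes lie above 20, and 3 of the 5 activators and 5 of the 8 inhibitor and assembly genes lie below it.

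Of the 3 immunoproteasome genes, whose products replace the catalytic subunits, 1 passed the test. Psmb10 was at 70.7, 60.5 and 71.9 CPM in Cre-positive and 55.5, 69.3 and 57.1 CPM in Cre-negative Aldara libraries, against 19.2, 42.2, 25.9 and 28.4 CPM in Cre-positive and 73.4, 14.6 and 27.4 CPM in Cre-negative untreated libraries. Cre-negative untreated replicate 1 was above every Aldara library, and the other untreated libraries were below all of them. Psmb10 rose in the averaged contrast (0.94, SE 0.30, edgeR adjusted p = 0.0303) but did not pass within Cre-positive (1.23, adjusted p = 0.0516) or Cre-negative cells (0.65, adjusted p = 0.435), and Psmb8 (0.30, adjusted p = 0.371) and Psmb9 (-0.16, adjusted p = 0.617) did not pass. Whether the constitutive and immunoproteasome genes differ was not tested. Aldara libraries held Psmb8 at 146, 316 and 285 CPM (Cre-positive) and 161, 235 and 281 CPM (Cre-negative), and untreated libraries at 119, 196, 175 and 210.2 CPM (Cre-positive) and 297, 159.9 and 177 CPM (Cre-negative). The groups of Psmb8 overlapped. Of 12 genes of the interferon-gamma pathway and class I peptide loading 0 rose and 4 fell, with a median of -0.01, among them Irf1, an interferon-induced factor, at -1.64 (adjusted p = 0.00877) and the kinase gene Jak1 at -0.70 (adjusted p = 0.00265).

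A list of proteasome subunits, chaperones and partners outside the Psm names went both ways. The rule by symbol leaves out subunits such as Adrm1 and Sem1, which were placed in this list and whose values are not given here. Of 12 tested, 5 rose and 2 fell in the averaged contrast, with a median of 0.47. Uchl5, a deubiquitinating enzyme of the regulatory particle, rose by 1.05 (SE 0.17, adjusted p = 0.000353) and Pomp, which helps the beta ring mature, by 0.78 (SE 0.16, adjusted p = 0.00237). The 2 that fell were Zfand2b and Zfand5, at -0.68 and -0.52, which were chosen after their values were seen. Of 8 shuttle receptors that bring ubiquitinated proteins to the proteasome 4 rose and 1 fell, Sqstm1 at -0.74 (adjusted p = 0.0139). Of 14 genes of the unfoldase p97 and its cofactors 2 rose and 1 fell, with Vcp itself at 0.65 (adjusted p = 0.00461) and Yod1 at -0.98 (adjusted p = 0.0102).

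Of 13 genes known to control proteasome transcription 0 rose and 3 fell, with a median of -0.16. This lies near the median of -0.15 for all genes tested, of which 11.9% were called lower. The list was not split by whether a gene raises or lowers that transcription, so its count and median carry no single direction. Nfe2l1, chosen after its values were seen, averaged 137 ± 38.3 CPM in Cre-positive and 154 ± 9.30 CPM in Cre-negative Aldara libraries (SD, n = 3 each), against 169 ± 19.5 CPM (SD, n = 4) and 144 ± 13.6 CPM (SD, n = 3) in Cre-positive and Cre-negative untreated libraries. Its averaged log2 fold change was -0.10 (SE 0.15, edgeR adjusted p = 0.687), a level of transcript that says nothing of the protein. Mafk, a small MAF partner, fell by 1.30 (adjusted p = 0.000661) and Fbxw7, a ubiquitin ligase subunit, fell by 1.23 (adjusted p = 0.0023).

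Another pair of protein complexes was read for comparison. Of the 8 subunits of the cytosolic chaperonin CCT 7 rose, with a median of 0.81, among them Cct3 at 1.14 (adjusted p = 9.63e-05) and Cct5 at 0.83 (adjusted p = 0.000492). Of the 9 subunits of the COP9 signalosome, which is related to the lid, 3 rose, with a median of 0.42, among them Cops5 at 0.79 (adjusted p = 0.00195) and Cops6 at 0.52 (adjusted p = 0.0127). No test between the complexes was made.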

How the data were processed

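Raw counts per gene of 13 libraries were used as deposited by the authors, as 1 table of 25746 genes. Per the labels, full-length cDNA was amplified by Smart-seq2, a method that does not mark strand, and sequenced single-end at 100 bases. Per the submitters' processing notes, the tools were STAR and featureCounts of Subread on GRCm38. No source used here gives their versions or says how strand and reads with several matches were handled.

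From the counts, edgeR 4.0.16 in R 4.3.3 kept 16051 genes (filterByExpr, minimum count 10), scaled libraries by TMM and fitted a quasi-likelihood model to the 4 groups. Contrasts were the Aldara effect in each genotype and averaged, Cre-positive against Cre-negative untreated and after Aldara, and the interaction. P-values were adjusted by Benjamini-Hochberg over all genes tested and called at 0.05; every adjusted p comes from edgeR unless another tool is named. SE was computed from each log2 fold change and its quasi-likelihood F. Libraries held 5830034 to 22232478 counts, and the SE of a fold change carries the spread between libraries as well as depth. A script with the same fit was tested on simulated data. Alternatives were DESeq2 1.42.0, limma 3.58.1 (voom), RLE size factors, no filter on low counts, the replicate number as a block, each library left out and 3 libraries left out; the length used for levels, and the correlation among members without those 3 libraries, were added after seeing the data.

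The members, lists and tests were chosen with earlier results of these data known. Per-library values were given for the catalytic subunits and, in each role, the 3 genes with the smallest p in the averaged contrast; from other lists, the 2 smallest. Other genes were named in counts or as exceptions. Some genes that this rule picks are not reported here. Gene coordinates and exon overlaps are from GENCODE M21 (GRCm38). Exons of 13 of the 45 tested members overlapped another gene, and not all of these are named above.

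Libraries with the same replicate number were not more alike by median. Deviations from group means correlated at a median of -0.0004 over 18 pairs with the same number (-0.163 to 0.421). Over 45 other pairs the median was -0.0022 (-0.445 to 0.369). Whether equal numbers mark shared animals, litters or days is not in the labels, and these values cannot decide it.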

Additional observations from a re-analysis of the deposited data

How the results depend on the processing

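In the averaged contrast the Aldara effect was above 0 in every setting for 43 of 45 members, and no setting called a member between genotypes. The number of members called moved more. In Cre-positive cells it was 22, and 10 to 25 with 1 library left out; in Cre-negative cells 11, and 0 to 13; averaged 35, and 26 to 37. Without the 3 libraries high in Gm10800 it was 3, 0 and 21 in the same order; fewer libraries remain in that fit. In Cre-negative cells it was also 21 by DESeq2, 16 by limma voom, 5 with no filter on low counts and 6 with the replicate block. The cause was not tested. Calls over all genes are given only for the main fit and for the fit without the 3 libraries. In the other settings, a change particular to the members cannot be told from one over all genes. By the labels, libraries with equal replicate numbers share only that number. The block gave 20 calls in Cre-positive cells and 34 averaged, with medians of 0.86, 0.68 and 0.83. Medians stayed at 0.65 to 0.86, 0.56 to 0.81 and 0.64 to 0.81 with 1 library left out. The genotype medians were -0.07 to 0.20 untreated, 0.06 to 0.20 after Aldara and -0.06 to 0.15 for the interaction. Single genes were followed through the settings only if picked as catalytic subunits or for the smallest p in a role or contrast. Psmd10, which was not picked, was above 0 in 16 of 19 settings in the averaged contrast. Of 1539 values of the picked genes 1327 kept direction and side of the threshold, 181 lost the call, 28 gained it and 3 changed sign. The last were Psmc3ip in Cre-positive cells (-0.20) and Psmd8 averaged (-0.14), both without the 3 libraries, and Psmd9 in Cre-negative cells without Cre-negative Aldara replicate 1 (-0.063, with 0.43 as the highest value with 1 library left out). With basic transcript length the untreated CPM per kilobase was 121 for the alpha ring, 129 for the beta ring, 94.3 for the ATPases, 79.7 for the non-ATPases, 19.0 for inhibitor and assembly genes and 16.5 for activators.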
